A study of Mus musculus with 32 samples.

Results

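The mouse Fc gamma receptors are the cell-surface receptors for the constant part of immunoglobulin G, and their 4 genes (Fcgr1, Fcgr3, Fcgr4 and Fcgr2b) were followed through a table of 5582 genes from mouse brain. They were taken by gene symbol, and all 4 were found, each in a single row. The animals were C57BL/6 mice in which targeted replacement put human APOE4 or human APOE3, the risk and the common form of apolipoprotein E, in place of the mouse gene. They were studied 14 days after a traumatic brain injury (TBI) or a sham operation. The groups were APOE4 TBI (8 animals), APOE4 sham (7 animals), APOE3 TBI (8 animals) and APOE3 sham (7 animals).

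Every animal carried human APOE on both alleles, so no group had the mouse gene, and every animal was anaesthetised and had a 4.5 mm craniotomy over the left parietal cortex. The TBI groups then received 1 controlled cortical impact from a 3 mm tip to a depth of 1 mm. Sham animals were not impacted, but they were not unoperated either. The hippocampus and cortex next to the injury were frozen as 1 piece per animal, and bulk RNA was sequenced. Animal ages are not given in the sources used here. In bulk tissue, more cells of a type and more RNA per cell cannot be told apart, and this applies to each difference below. Of 32 libraries, 2 had labels that disagree with each other on injury or on genotype, and they were left out of the comparisons.

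Fc gamma receptors link antibody to the cells that engulf it. The activating receptors FcγRI (Fcgr1, the receptor with high affinity), FcγRIII (Fcgr3) and FcγRIV (Fcgr4) pair with the common gamma chain (Fcer1g), whose activation motif recruits the kinase Syk. FcγRIIb (Fcgr2b) is the single inhibitory receptor of the family, and its own motif recruits the lipid phosphatase SHIP1 (Inpp5d), which counters that signal. In the brain these receptors are known from microglia, the resident phagocytes, and from macrophages, and FcγRIIb also from B cells. The question put to the data was how the activating receptors and the inhibitory one stood to each other over the 4 groups.

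The authors had selected the listed genes on the injury contrast in these same animals, so injury calls over the table are not independent of that choice. Summed over these genes a library had 2262242 to 8606717 counts, which is not its sequencing depth. There was a gap between 16 shallow libraries, none above 3595246, and 16 deep ones, none under 4648345, and each group had both kinds. Levels are given as TMM-scaled CPM, counts set to a common library size, over the listed genes. Differences are log2 values from edgeR's quasi-likelihood test, with Benjamini-Hochberg adjusted p and a threshold of 0.05. They were fitted over 5371 genes that passed a filter on low counts. That test gives no standard error (SE). The SE shown is the size of the difference divided by the square root of its F statistic, and is approximate where counts are low. For Fcgr4 over both genotypes it was 0.271, against 0.334 from DESeq2. All 4 receptors passed the filter. Fcgr4 passed through the injured animals alone, since 16 TBI and 0 sham libraries reached the minimum of 2.10 CPM (the filter asks for 7). A gene that enters in this way was let in by its level after injury, and of 289 tested genes with fewer than 7 sham libraries at the minimum, 275 were called higher. So such genes, Fcgr4 included, are given with their values and are left out of the counts of called genes and the medians of lists below, which are over genes with at least 7 TBI and 7 sham libraries at the minimum (5068 genes). For the other 3 receptors 16 TBI and 14 sham libraries reached the minimum.

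Of the receptors 3 are neighbours. Fcgr2b (chr1:170960558-170976071, minus strand), Fcgr4 (chr1:171018926-171029761, plus strand) and Fcgr3 (chr1:171051169-171065915, minus strand) lie within a span of 273.792 kb on chromosome 1 that ends with Fcer1g (chr1:171229572-171234349, minus strand), and Fcgr1 lies apart on chromosome 3 (chr3:96282909-96293969, minus strand; all in GRCm38.p6). The gap is 42.854 kb between Fcgr2b and Fcgr4 and 21.407 kb between Fcgr4 and Fcgr3. Fcgr3 overlaps 4 small RNA genes in the annotation, and Fcgr4 overlaps 1 predicted gene (Gm26110), whose reads could be shared if strand was not used in the counting. Fcgr2b and Fcgr3 are close copies over their extracellular part, and the longest run that the 2 share without a difference is 129 bases, all of it coding. It is shown because a read that falls inside it cannot be assigned to the inhibitory or the activating receptor. The first 102 bases are from exon 3 (chr1:170967980-170968081 in Fcgr2b and chr1:171057691-171057792 in Fcgr3) and the 27 bases in capitals from exon 4 (chr1:170966674-170966700 and chr1:171054167-171054193, GRCm38, minus strand).

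Fcgr2b and Fcgr3: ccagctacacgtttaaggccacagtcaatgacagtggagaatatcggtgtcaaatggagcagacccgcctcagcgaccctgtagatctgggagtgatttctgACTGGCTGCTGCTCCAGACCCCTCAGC

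Of all words of 51 bases in the Fcgr3 transcripts, 9.41% also occur in Fcgr2b, and 2.87% of those of Fcgr2b occur in Fcgr3. The sources used here do not give the read length or the handling of reads that match more than 1 gene. So a part of the counts of Fcgr3 and Fcgr2b is uncertain, and its size was not measured. Fcgr3 had more reads than Fcgr2b (5351 against 2250 in TBI, 1759 against 479 in sham). Misplaced reads would therefore weigh more on Fcgr2b, and on each ratio to Fcgr2b below.

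The promoters are shown because all 4 genes differed in the same direction after injury, and because interferon gamma and the myeloid factor PU.1 are known regulators of this family. Each is 300 bases, 250 before the RefSeq start and 50 after it, on the gene's own strand (GRCm38.p6). Capitals mark matches, on either strand, to the gamma-activated site TTCNNNGAA, to the interferon response core, which is GAAA repeated after a gap of 2 bases of any kind, and to the PU.1 box GAGGAA. The table has 1 start for each gene but Fcgr3, which has 2 that lie 9 bases apart, and the outer one is shown. Both are more than 6.51 kb inside the 5′ end of the annotated Fcgr3 gene. The regions are chr3:96293920-96294219 for Fcgr1, chr1:171059354-171059653 for Fcgr3, chr1:171018676-171018975 for Fcgr4 and chr1:170976022-170976321 for Fcgr2b.
Fcgr1: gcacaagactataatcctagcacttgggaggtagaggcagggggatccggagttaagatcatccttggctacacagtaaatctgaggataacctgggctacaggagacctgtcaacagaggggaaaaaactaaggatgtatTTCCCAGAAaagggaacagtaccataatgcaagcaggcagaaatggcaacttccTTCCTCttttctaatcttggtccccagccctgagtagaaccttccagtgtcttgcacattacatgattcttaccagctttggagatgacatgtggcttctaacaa
Fcgr3: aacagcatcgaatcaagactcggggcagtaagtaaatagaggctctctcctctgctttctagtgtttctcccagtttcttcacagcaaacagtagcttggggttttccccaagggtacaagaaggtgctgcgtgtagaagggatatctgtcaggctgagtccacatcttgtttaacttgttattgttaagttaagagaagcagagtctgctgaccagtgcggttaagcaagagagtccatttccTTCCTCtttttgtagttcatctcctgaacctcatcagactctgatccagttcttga
Fcgr4: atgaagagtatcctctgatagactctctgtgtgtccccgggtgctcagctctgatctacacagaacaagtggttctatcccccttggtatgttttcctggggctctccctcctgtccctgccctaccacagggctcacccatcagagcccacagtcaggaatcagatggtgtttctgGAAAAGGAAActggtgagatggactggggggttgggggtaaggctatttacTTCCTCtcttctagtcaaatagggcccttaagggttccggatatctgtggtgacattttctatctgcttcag
Fcgr2b: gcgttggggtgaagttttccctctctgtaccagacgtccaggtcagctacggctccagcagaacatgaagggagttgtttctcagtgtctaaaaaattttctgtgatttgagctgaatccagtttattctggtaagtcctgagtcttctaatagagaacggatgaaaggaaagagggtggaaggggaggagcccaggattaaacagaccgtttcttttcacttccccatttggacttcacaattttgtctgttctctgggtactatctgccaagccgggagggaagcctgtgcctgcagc

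The Fcgr1 window holds the gamma-activated site at position −109 from the start and a PU.1 box at position −55. The Fcgr4 window holds the interferon core at position −73 and a PU.1 box at position −22, and the Fcgr3 window a PU.1 box at position −6 (9 bases farther from its other start). The Fcgr2b window holds none of these letters. All PU.1 boxes are on the opposite strand. The 3 motifs did not overlap in these windows. Of 32851 promoter windows of this length, 8.30% hold the gamma-activated site, 3.44% the interferon core and 28.3% the PU.1 box, so a match to the last is common. A match is a string of letters and no evidence of binding.

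All 4 receptors were higher after injury, by unequal amounts. Over both genotypes Fcgr4 was 10.7-fold higher after TBI, Fcgr2b 4.01-fold, Fcgr1 2.88-fold and Fcgr3 2.64-fold. Fcgr1, Fcgr3 and Fcgr2b passed the test as higher, 3 of 3, where 45.7% of the genes at the minimum in both conditions did and 48.2% of all tested genes. For these 3 all 16 TBI animals lay above the highest of the 14 sham animals, which held for 5.59% of tested genes, and Fcgr4 was apart in the same way. Within APOE4 mice and within APOE3 mice the groups were also apart for the 3 receptors and for Fcgr4, against 8.97% of genes in APOE4 and 11.8% in APOE3.

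Fcgr1 encodes the receptor that binds single antibody molecules. In APOE4 TBI animals its level had a lowest value of 17.4, a median of 20.5 and a highest value of 34.8 CPM, against 4.26, 7.76 and 9.98 CPM in APOE4 sham animals. In APOE3 TBI animals it ran from 14.7 through a median of 23.4 to 30.5 CPM, against 6.14, 6.84 and 12.8 CPM in APOE3 sham animals. The injured animals were high in both genotypes, and the gap was narrowest in APOE3, where 1 sham animal stood at 12.8 CPM. The log2 difference over both genotypes was 1.53 ± 0.13 (SE, 16 TBI and 14 sham animals, edgeR adjusted p = 2.60e-11).

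Fcgr3 had the most reads of the family in each of the 30 animals compared. It ran from 52.8 through a median of 61.3 to 114 CPM in APOE4 TBI animals, against 22.6, 25.1 and 28.01 CPM in APOE4 sham animals. In APOE3 TBI animals it ran from 58.2 through 70.4 to 97.3 CPM, against 18.6, 28.3 and 40.1 CPM in APOE3 sham animals. Its rise was the smallest of the 4 (log2 difference 1.40 ± 0.11, edgeR adjusted p = 2.09e-12).

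Fcgr4, the most recently described activating receptor of the mouse, was near the limit of detection without injury. It ran from 3.06 through a median of 4.07 to 8.70 CPM in APOE4 TBI animals, against 0, 0.429 and 0.998 CPM in APOE4 sham animals. In APOE3 TBI animals it ran from 2.52 through 4.81 to 6.89 CPM, against 0, 0.336 and 0.901 CPM in APOE3 sham animals. In reads, this was 365 over the 16 TBI libraries and 28 over the 14 sham libraries. In each genotype 1 sham library had no read, which allows up to 1.29 CPM in the APOE4 animal and up to 0.447 CPM in the APOE3 animal (3 counts, counting error only). The log2 difference was 3.42 ± 0.27 (edgeR adjusted p = 4.43e-12), a p-value that is not independent of the filter. Its size in APOE3 (3.58 ± 0.39) leaned on APOE3 sham replicate 3, which gave 7 of the 13 sham reads, and it was 4.29 without that animal.

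Fcgr2b, the inhibitory receptor, rose more than Fcgr1 and Fcgr3. It ran from 18.4 through a median of 23.0 to 62.0 CPM in APOE4 TBI animals, against 5.40, 7.57 and 8.52 CPM in APOE4 sham animals. In APOE3 TBI animals it ran from 18.5 through 28.4 to 41.0 CPM, against 5.22, 7.13 and 10.03 CPM in APOE3 sham animals. The injured animals spread widely, with a coefficient of variation of 39.8% after TBI against 20.3% in sham, and APOE4 TBI replicate 6 was the highest of its group for all 4 receptors. Injured animals with the letter M in their title ran from 18.4 to 37.1 CPM, and those with F from 18.5 to 62.0 CPM. The labels do not spell out these letters. The log2 difference was 2.004 ± 0.152 (edgeR adjusted p = 1.78e-12).

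**Figure D1:**
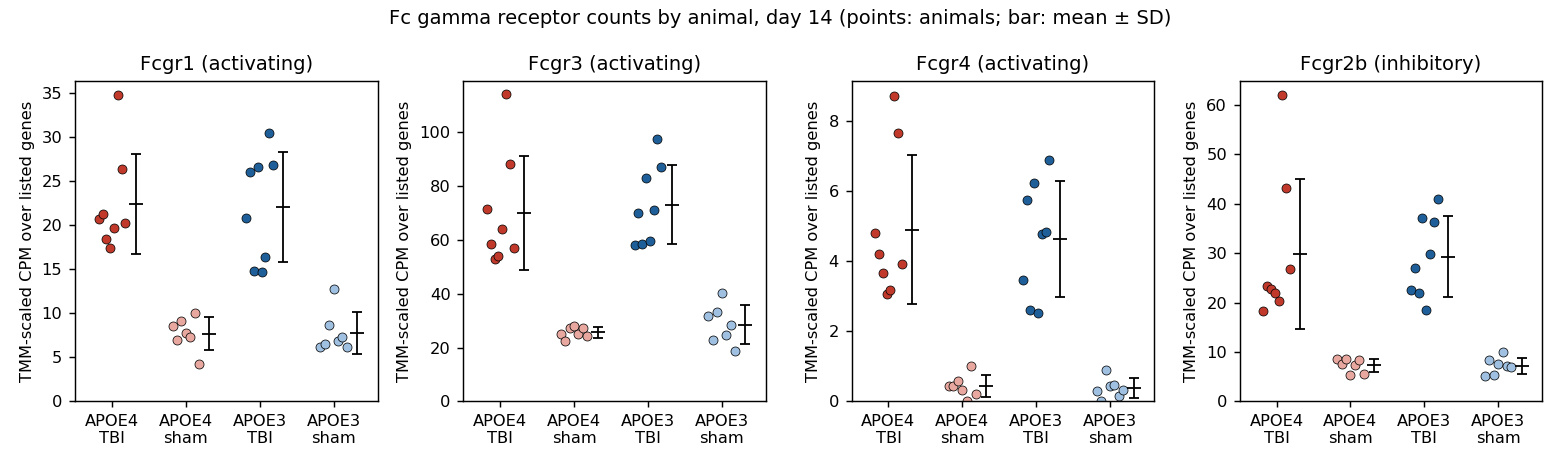
Level of each Fc gamma receptor in each animal (vertical axis, TMM-scaled CPM over the listed genes, linear and starting at 0) in APOE4 TBI, APOE4 sham, APOE3 TBI and APOE3 sham mice. Points are animals and the bar beside them is the mean ± SD. For all 4 receptors the 16 TBI animals lie above the 14 sham animals, and Fcgr4 lies at or under 0.998 CPM in sham.

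Both depth classes gave the same picture. In the shallow libraries alone the log2 differences over both genotypes were 1.45 for Fcgr1, 1.32 for Fcgr3, 3.50 for Fcgr4 and 1.93 for Fcgr2b. In the deep libraries alone they were 1.54, 1.42, 3.40 and 2.05 in the same order. Each of these values passed, which for Fcgr4 is not independent of the filter. The authors' deposited table lists log2 coefficients of 1.55 for Fcgr1, 1.36 for Fcgr3, 3.31 for Fcgr4 and 2.004 for Fcgr2b. TMM takes the changes to balance over the listed genes, and the median gene differed by 0.10 on the log2 scale. With total counts in its place the median gene shifted by 0.0915, the receptors' log2 differences were 1.62 for Fcgr1, 1.49 for Fcgr3, 3.51 for Fcgr4 and 2.10 for Fcgr2b, and the split of called genes became 2787 higher and 1185 lower, against 2589 higher and 2464 lower with TMM.

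The balance between activating and inhibitory receptor was measured within each library, as the log2 ratio of the read count of an activating receptor to that of Fcgr2b (0.5 added to each), which needs no scaling factor. After injury the ratio was lower for Fcgr1 and Fcgr3 and higher for Fcgr4. Summed over animals, there were 0.747 reads of Fcgr1 per read of Fcgr2b after TBI and 1.05 in sham. For Fcgr3 there were 2.38 after TBI and 3.67 in sham, and for Fcgr4 0.162 after TBI and 0.0585 in sham.

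In APOE4 animals the mean log2 ratio of Fcgr4 to Fcgr2b was −2.55 ± 0.30 after TBI and −3.89 ± 0.68 in sham (SD, n = 8 and 7). The difference was 1.34 (95% interval 0.80 to 1.91, exact 2-sided permutation p = 0.000155, adjusted over 15 ratio tests p = 0.00233), and the smallest p that 6435 arrangements allow was reached. All 8 TBI animals lay above all 7 sham animals. In APOE3 animals it was −2.66 ± 0.24 after TBI and −4.18 ± 1.37 in sham, a difference of 1.52 (0.60 to 2.57, exact permutation p = 0.0014, adjusted p = 0.0105), and only 1 of 8 TBI animals lay above every sham animal. Fcgr4 counts in sham are so low that the size of this difference depends on the added 0.5, and with 1 added instead it was 1.03 in APOE4 and 1.15 in APOE3. Fcgr4 also passed the filter through the injured animals alone. So the p-values of its ratio, here and with the genotypes pooled below, are not independent of its level after injury.

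The ratio of Fcgr3 to Fcgr2b was lower after TBI in each genotype, and neither difference passed after adjustment. In APOE4 animals it was 1.303 ± 0.346 after TBI and 1.81 ± 0.30 in sham, a difference of −0.51 (−0.87 to −0.15, exact permutation p = 0.0113, adjusted p = 0.0513). In APOE3 animals it was 1.34 ± 0.18 after TBI and 1.96 ± 0.58 in sham, a difference of −0.62 (−1.10 to −0.14, exact permutation p = 0.0137, adjusted p = 0.0513). In APOE4 mice 6 of 8 TBI animals lay below every sham animal, and in APOE3 mice 3 of 8.

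The ratio of Fcgr1 to Fcgr2b likewise missed the threshold in each genotype. In APOE4 animals it was −0.32 ± 0.33 after TBI and 0.05 ± 0.28 in sham, a difference of −0.38 (exact permutation p = 0.0353, adjusted p = 0.0882). In APOE3 animals it was −0.41 ± 0.27 after TBI and 0.10 ± 0.50 in sham, a difference of −0.51 (exact permutation p = 0.0263, adjusted p = 0.0788). In each genotype 3 of 8 TBI animals lay below every sham animal.

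With the genotypes pooled, a test added after these values were seen, all 3 ratios passed, that of Fcgr4 with the limit given above. The labels were permuted within genotype 100000 times and the p adjusted over 18 ratio tests. The ratio to Fcgr2b differed by −0.44 ± 0.13 for Fcgr1 (SE, permutation p = 0.00147, adjusted p = 0.00529) and by −0.56 ± 0.14 for Fcgr3 (permutation p = 0.00029, adjusted p = 0.00174). In each case 15 of 16 TBI animals lay below the sham mean. For Fcgr4 it differed by 1.43 ± 0.28 (permutation p = 1e-05, the smallest that this number of permutations can give, adjusted p = 0.00018), with 16 of 16 TBI animals above the sham mean. In the shallow libraries alone the Fcgr1 and Fcgr3 differences were −0.43 and −0.54 and did not pass (adjusted p = 0.259 and 0.212), and in the deep libraries alone all 3 passed.

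**Figure D2:**
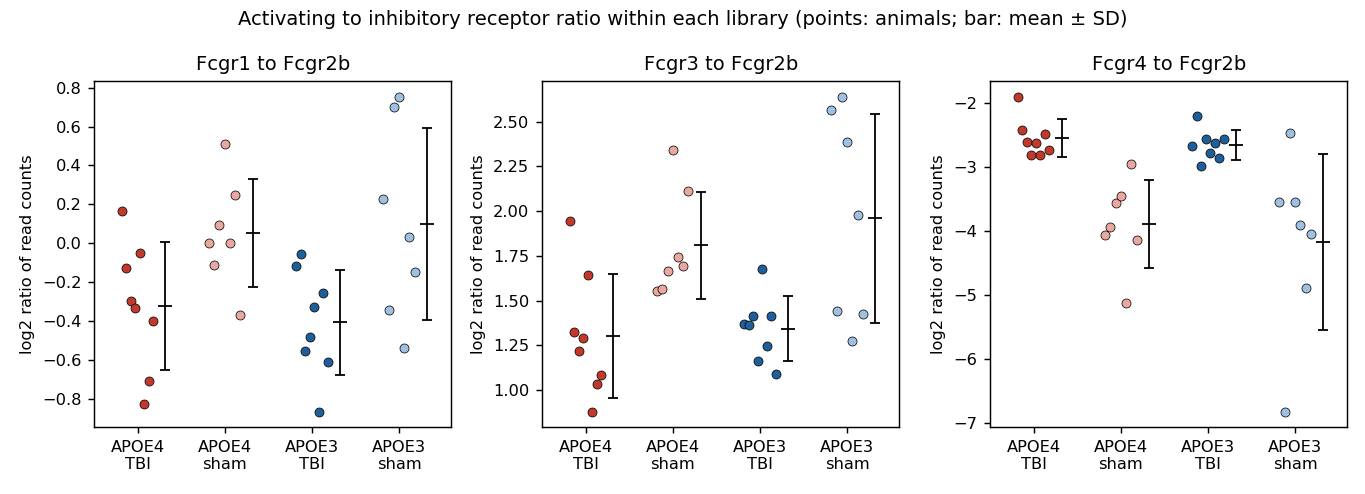
Log2 ratio of the read counts of each activating receptor to those of the inhibitory receptor Fcgr2b (vertical axis, 0.5 added to each count), by animal, in APOE4 TBI, APOE4 sham, APOE3 TBI and APOE3 sham mice. Points are animals and the bar beside them is the mean ± SD. The ratio to Fcgr2b is lower after TBI for Fcgr1 and Fcgr3, with overlap, and higher for Fcgr4, which spreads most in the APOE3 sham animals.

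Most activating reads were of Fcgr3, and the sum of the activating receptors is given without a test. There were 3.29 activating reads per read of Fcgr2b over the TBI libraries and 4.78 over the sham libraries. As a share of the reads of all 4 receptors, Fcgr3 averaged 56.3 ± 3.29% after TBI and 63.6 ± 5.08% in sham, and Fcgr2b 22.6 ± 3.01% after TBI and 17.4 ± 4.07% in sham (SD over 16 and 14 animals). Fcgr1 averaged 17.5% after TBI and 18.1% in sham, and Fcgr4 3.65% after TBI and 0.918% in sham.

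Between genes, levels can be set side by side only per length. Divided by the longest RefSeq mRNA (2.589 kb for Fcgr1, 1.347 kb for Fcgr3, 1.256 kb for Fcgr4 and 3.544 kb for Fcgr2b), Fcgr3 stood at 53.1 ± 13.2 CPM per kb after TBI and 20.1 ± 3.92 in sham. Fcgr1 stood at 8.58 ± 2.22 CPM per kb after TBI and 2.99 ± 0.79 in sham, and Fcgr2b at 8.34 ± 3.31 after TBI and 2.05 ± 0.41 in sham. Fcgr4 was lowest, at 3.79 ± 1.46 CPM per kb after TBI and 0.319 ± 0.229 in sham. Fcgr1 and Fcgr2b after TBI lie within each other's spread, and with the length of all annotated exons (5.790 kb for Fcgr2b) Fcgr2b was at 5.10 ± 2.03 CPM per kb.

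**Figure D3:**
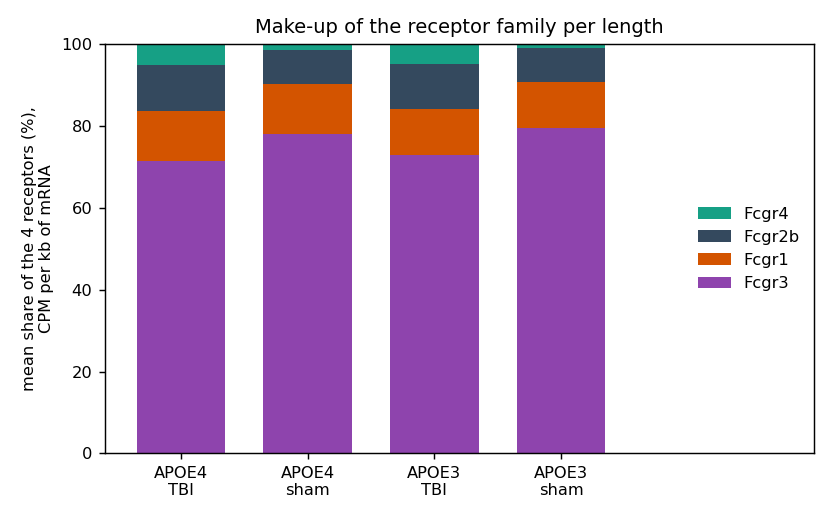
Mean share of each receptor (stacked, percent) in the level of the 4 receptors per kb of RefSeq mRNA, in APOE4 TBI, APOE4 sham, APOE3 TBI and APOE3 sham mice. Fcgr3 makes up 71.5% in APOE4 TBI and 78.1% in APOE4 sham animals, and 72.9% in APOE3 TBI and 79.5% in APOE3 sham animals.

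Human APOE4 and APOE3 mice did not differ detectably in any of the receptors. Within APOE4 the log2 differences between TBI and sham were 1.50 ± 0.19 for Fcgr1, 1.42 ± 0.16 for Fcgr3, 3.26 ± 0.38 for Fcgr4 and 1.92 ± 0.22 for Fcgr2b. Within APOE3 they were 1.55 ± 0.19, 1.39 ± 0.15, 3.58 ± 0.39 and 2.08 ± 0.22 in the same order. Fcgr1, Fcgr3 and Fcgr2b passed as higher in each genotype, where 33.9% of all tested genes did in APOE4 and 38% in APOE3.

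The interaction of injury and genotype (the APOE4 difference minus the APOE3 difference) was −0.05 ± 0.27 for Fcgr1 (95% interval −0.60 to 0.50) and 0.03 ± 0.22 for Fcgr3 (−0.41 to 0.48). It was −0.32 ± 0.65 for Fcgr4 (−1.65 to 1.01) and −0.16 ± 0.31 for Fcgr2b (−0.80 to 0.48), each with an edgeR adjusted p = 0.999. The interval was narrowest for Fcgr3 and widest for Fcgr4, which has the fewest reads. No gene of the table passed here (0% with edgeR, 99 genes at an unadjusted p under 0.05, and 0 with DESeq2 and with limma-voom).

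After TBI, APOE4 minus APOE3 was −0.01 ± 0.16 for Fcgr1, −0.08 ± 0.14 for Fcgr3, −0.01 ± 0.24 for Fcgr4 and −0.03 ± 0.18 for Fcgr2b (edgeR adjusted p from 0.895 to 0.997). In sham animals it was 0.04 ± 0.21, −0.12 ± 0.17, 0.31 ± 0.60 and 0.13 ± 0.25 in the same order (edgeR adjusted p = 1.00 each). Of all genes 0.447% passed between genotypes after TBI and 0.168% in sham, and none of the 4 receptors was among them. The ratios to Fcgr2b did not differ detectably between genotypes either, with adjusted permutation p = 0.83 for all 9 such tests, interaction included. The largest of the genotype differences in ratio was 0.28 for Fcgr4 in sham, with a 95% interval of −0.89 to 1.56.

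**Figure D4:**
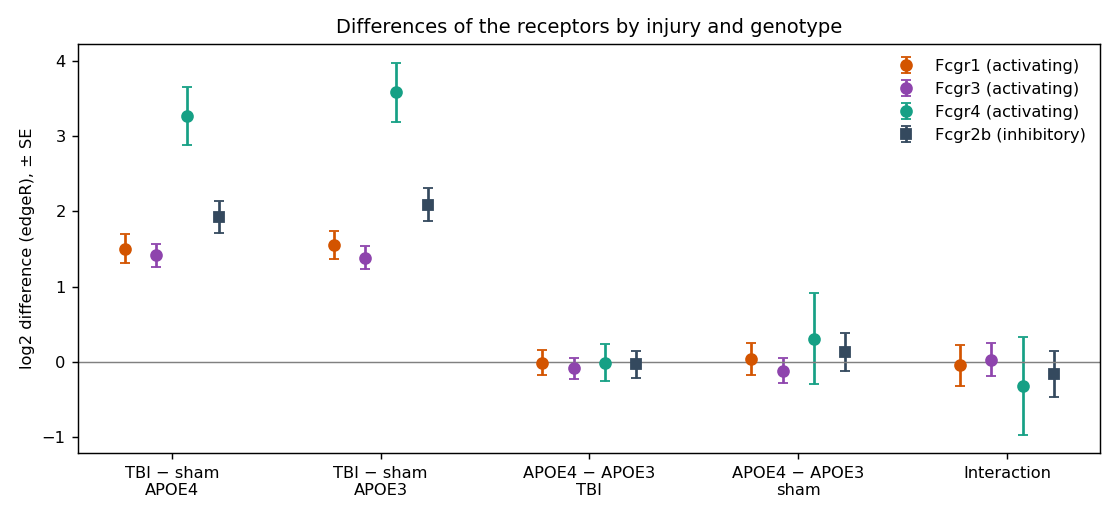
Log2 difference from edgeR with its standard error (vertical axis) for the 3 activating receptors (circles) and the inhibitory receptor (squares). From left to right are TBI minus sham in APOE4, TBI minus sham in APOE3, APOE4 minus APOE3 after TBI, APOE4 minus APOE3 in sham, and the interaction. The injury differences lie between 1.39 and 3.58, and the others lie near 0, with the widest error for Fcgr4.

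The 4 receptors varied together among injured animals. Over the 16 TBI animals the 6 pairs had Pearson's r of log2 CPM from 0.81 (Fcgr1 with Fcgr2b) to 0.87 (Fcgr2b with Fcgr3), with permutation p adjusted over the 6 pairs of at most 0.00014. Spearman's rho ran from 0.61 (Fcgr2b with Fcgr3, adjusted permutation p = 0.0141) to 0.86 (Fcgr1 with Fcgr4, adjusted permutation p = 0.0003). Without the 2 animals farthest from the median of 1 gene of the pair, r ran from 0.70 to 0.87. Within APOE4 TBI animals it ran from 0.84 to 0.96, within APOE3 TBI animals from 0.78 to 0.93, in the shallow TBI libraries from 0.80 to 0.93 and in the deep ones from 0.77 to 0.99.

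In sham animals the 6 values of r spread more widely. Among the 7 APOE4 sham animals they ran from −0.01 (Fcgr2b with Fcgr3) to 0.71 (Fcgr1 with Fcgr2b). Among the 7 APOE3 sham animals they ran from −0.37 (Fcgr2b with Fcgr3 and with Fcgr4) to 0.77 (Fcgr1 with Fcgr3). No test of these values, or of their difference from TBI, was made. Counts are lower in sham, which limits the precision of these values. The summed level of 10 markers shared by microglia and macrophages also varied among the injured animals, from 771 to 1715 CPM, and its part in the correlations was not tested.

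The genes most like each receptor were found from the correlation of log2 CPM over the 30 animals after the group means were taken off. The mean difference between TBI and sham thus did not enter, but differences among the injured animals did. The part of such differences in these correlations was not tested. For Fcgr1 the genes most like it were Clec7a (r = 0.78), Gbp6 (0.77) and P2ry6 (0.76), and for Fcgr3 Tnfrsf1b (0.86), Lcp1 (0.86) and C1qb (0.85). For Fcgr4 they were St14 (0.75), Gm9835 (0.74) and Cd22 (0.71), and for Fcgr2b Msn (0.87), Cyp1b1 (0.87) and Pros1 (0.87). The 4 receptors had no gene in common among these 12. By the same measure r between Fcgr2b and the activating receptors was 0.63 for Fcgr1, 0.54 for Fcgr3 and 0.46 for Fcgr4.

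The partners of the activating receptors rose with them. Fcer1g, the gamma chain, ran from 25.0 through a median of 35.1 to 86.3 CPM in TBI animals, against 9.14, 12.7 and 16.3 CPM in sham animals (log2 difference 1.72 ± 0.15, edgeR adjusted p = 3.34e-11). All 16 TBI animals lay above every sham animal. Of 8 genes listed for the gamma chain and the proximal kinases, 7 were tested, 6 of them reached the minimum in both conditions, and these 6 rose with a median log2 difference of 1.14. Of all genes at the minimum in both conditions 45.7% rose, and their median was −0.07, which is the background for each list below. The kinase Syk differed by 0.96 ± 0.12, Btk by 1.26 ± 0.16 and the Src-family kinase Fgr by 4.46 ± 0.39. Fgr passed the filter through TBI libraries alone, with 12 reads over the sham libraries, 7 of which were at 0, and its fold is poorly fixed.

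Further down, 17 of 20 listed signalling genes were tested and all 17 rose (background 45.7%), with a median of 1.07. The largest were the GTPase Rac2 of the phagocyte oxidase (1.85 ± 0.17), the adaptor Pik3ap1 (1.51 ± 0.11) and the adaptor Lat2 (1.47 ± 0.17). The brake on this signal was higher as well. Of 10 listed inhibitory phosphatases and adaptors 6 were tested and 6 rose (background 45.7%), with a median of 0.72. Inpp5d, the phosphatase SHIP1 that FcγRIIb recruits, differed by 0.99 ± 0.08 (edgeR adjusted p = 2.34e-11), the phosphatase Ptpn6 (SHP-1) by 1.67 ± 0.15 and the adaptor Dok1 by 1.10 ± 0.19.

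Fcgr2b was not alone among inhibitory receptors of myeloid cells. Of 12 others listed, 9 were tested, and the 3 at the minimum in both conditions rose (background 45.7%), with a median of 1.24. The other 6 had too few sham libraries at the minimum, among them those with the largest differences. Lilrb4a differed by 4.22 ± 0.35, Cd300lf by 3.90 ± 0.50 and Clec12a by 3.52 ± 0.41. These 3 had 30, 8 and 9 reads over the 14 sham libraries, so their folds are uncertain. Of 11 other receptors for immunoglobulin and Fc receptor-like genes listed, 4 were tested, and the 3 at the minimum in both conditions rose, with a median of 0.94. They were the Fc receptor-like gene Fcrls (1.44 ± 0.12), the cytosolic antibody receptor Trim21 (0.94 ± 0.14) and the neonatal receptor Fcgrt (0.35 ± 0.08), which carries immunoglobulin G across cells. Fcrl1, another Fc receptor-like gene, differed by 1.52 ± 0.23 and passed the filter through TBI libraries alone.

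Immunoglobulin genes were at low levels, and none of those tested is specific to immunoglobulin G. Of 12 listed, 4 were in the table and 3 were tested, all of which passed the filter through TBI libraries, with at most 1 sham library at the minimum, so no count is given for them. The heavy chain gene Igha was at 16.1 ± 13.3 CPM after TBI and 0.895 ± 0.674 in sham (log2 difference 4.10 ± 0.36), and the light chain gene Igkc was at 13.6 ± 14.98 CPM after TBI and 0.718 ± 0.494 in sham (4.05 ± 0.47). Jchain, which joins antibodies of the A and M classes, differed by 2.77 ± 0.40. No gene of an immunoglobulin G heavy chain was among the genes tested here. Immunoglobulin genes are transcribed in B lineage cells, of whose 7 markers only Jchain was tested.

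Genes of the receptors, signalling factors and responses of cytokines known to regulate the Fc receptors were higher too. Of interferon gamma, interleukin-4, interleukin-10 and TGF-beta themselves, only the gene Tgfb1 was among the tested genes of these lists. Interferon gamma is known to raise the activating receptors, and of 15 genes listed for its response and receptor 9 were tested, and the 7 at the minimum in both conditions rose (background 45.7%), with a median of 0.82. The chemokines Cxcl10 (4.73 ± 0.36) and Cxcl9 (3.78 ± 0.43, 7 sham reads) passed the filter through TBI libraries alone, and the GTPase Gbp2 differed by 2.08 ± 0.15. Interleukin-4 is known to raise FcγRIIb in human monocytes, and of 13 genes listed for interleukin-4, interleukin-10 and TGF-beta 9 were tested and 9 rose (background 45.7%), with a median of 0.85. Il10ra differed by 1.06 ± 0.11, Tgfb1 by 0.97 ± 0.12 and Il13ra1 by 0.96 ± 0.10. No gene of these 8 lists passed between genotypes or for the interaction.

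**Figure D5:**
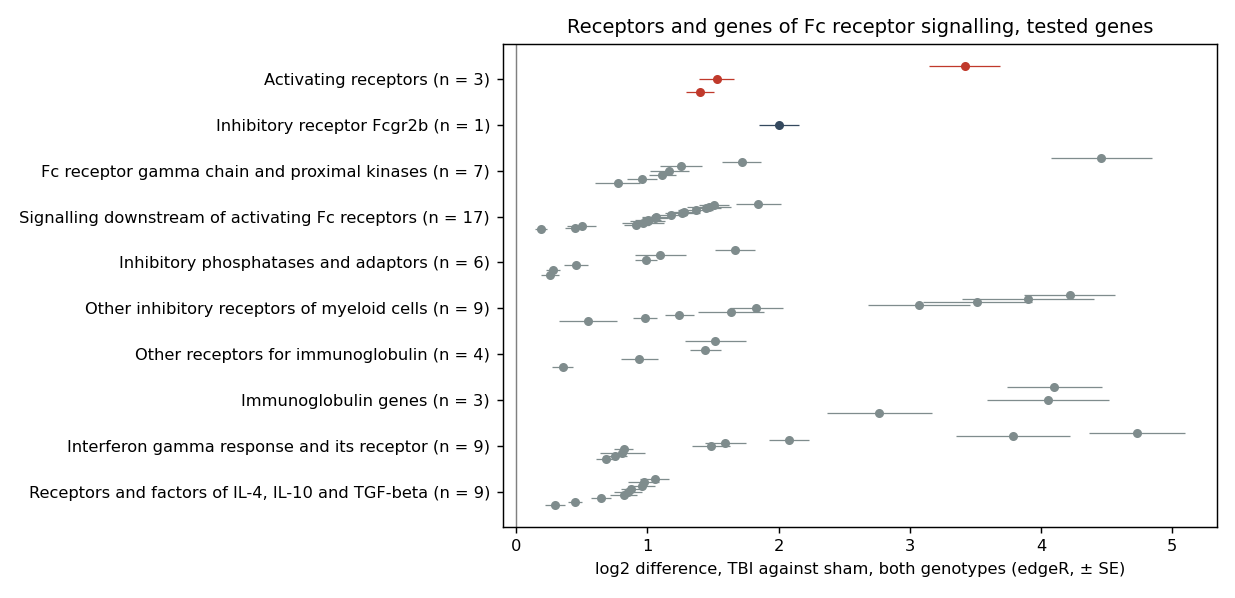
Log2 difference of TBI against sham over both genotypes with its standard error (horizontal axis) for the tested genes of each list (rows, with the number tested, those that passed the filter through TBI libraries alone included). The activating receptors and Fcgr2b are in the top 2 rows. All points lie above 0, and Fcgr4 at 3.42 lies among the genes above 3.

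Markers of the cells that carry these receptors moved with injury. All 10 markers shared by microglia and macrophages, Fcer1g among them, rose (background 45.7%), with a median of 1.56, and their summed level ran from 771 to 1715 CPM in TBI and from 396 to 536 CPM in sham animals. All 10 microglia markers, Fcrls of the list above among them, rose with a median of 0.72 (969 to 1813 CPM in TBI, 610 to 808 CPM in sham). Of 11 markers of infiltrating and border macrophages 6 were tested, and the 3 at the minimum in both conditions rose with a median of 0.87. Ms4a7 (3.20) and Ccr2 (2.43) passed the filter through TBI libraries alone. The 6 summed to 21.0 to 72.8 CPM in TBI and 10.4 to 36.0 CPM in sham. Their part in the receptor differences was not tested.

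Set against the summed level of the 10 shared markers, the averages of the receptors were higher after injury to unequal degrees. As a percentage of the summed marker level Fcgr1 was at 2.06 ± 0.30 after TBI and 1.66 ± 0.36 in sham (SD, n = 16 and 14), and Fcgr3 at 6.62 ± 0.57 after TBI and 5.81 ± 0.89 in sham. Fcgr4 was at 0.431 ± 0.090 after TBI and 0.0855 ± 0.0598 in sham, and Fcgr2b at 2.66 ± 0.43 after TBI and 1.57 ± 0.30 in sham. These shares are descriptions with no test, and for Fcgr1, Fcgr3 and Fcgr2b the ranges of TBI and sham animals overlap. They also depend on the weight of Csf1r, which had the highest level of the 10 markers (442 CPM after TBI, 236 in sham). Csf1r rose least of the 10 (0.90). The median marker rose by 1.56, more than Fcgr1 (1.53) and Fcgr3 (1.40) did. Whether receptor RNA per cell differed was not tested.

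Markers of other cells were few in the table. Of 8 neutrophil markers 2 were tested, S100a8 (3.09, through TBI libraries alone) and Csf3r (1.73), and their sum ran from 25.2 to 78.3 CPM in TBI and from 7.42 to 15.96 CPM in sham. Most of this sum was Csf3r, with a mean of 38.7 CPM after TBI and 11.7 in sham, against 2.82 and 0.303 for S100a8. The cells that Csf3r came from were not tested. Of 8 natural killer and T cell markers only 1 was tested, Trbc2 (−1.07), and of 6 dendritic cell markers only 1, Flt3 (−0.44). A single gene cannot stand for its cell type. No mast cell marker (0 of 5) and no oligodendrocyte marker (0 of 6) was in the table, which holds only genes the authors selected on injury. Of 6 endothelial markers 2 were tested and rose, Cldn5 (0.32) and Cdh5 (0.30). All 6 astrocyte markers rose, led by Vim (2.42) and Gfap (2.32). All 6 neuronal markers fell, Snap25 by 0.40, Nefl by 0.36 and Gad1 by 0.33. Of the 5371 tested genes 2464 passed as lower, so a fall is common in this table. The neuronal markers summed to 10214 to 14738 CPM in TBI and 15059 to 17059 CPM in sham, so neuronal RNA was abundant in the tissue labelled as brain. The part of these cells in the receptor differences was not tested.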

How the data were processed

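RNA-seq counts of 32 mouse libraries were used. The file the authors deposited holds whole, unnormalised counts for each gene and library. It also holds, per the file headers, the authors' log2 coefficients and p-values of the injury contrast. The highest p-value deposited by the authors is 0.0502, so the 5582 genes were selected on injury. Subread 1.5.0, edgeR 3.14.0 and the build mm10 appear in the submitters' processing notes. What each was used for, the annotation and the strand setting are not given in the sources used here. In the symbol column 13 names turned into dates were restored from gene identifiers.

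The analysis used edgeR 4.0.16 in R 4.3.3, with TMM, filterByExpr (5371 genes kept, 211 dropped) and quasi-likelihood F-tests, adjusted by Benjamini-Hochberg over all genes tested. The comparison over both genotypes had genotype and the title letter (M or F, not spelled out in the labels) as covariates. The other comparisons came from 1 model of the 4 group means and the letter. Ratios of counts were tested by exact 2-sided permutation tests (Python 3.11.15). The ratio tests and the correlations among TBI animals did not take the title letter into account. The scripts were tested on simulated data. Replicates are animals with their own numbers in the titles, and no libraries had identical counts. The limits given for Fcgr4 in the sham libraries with no read cover counting error only. This does not apply to the intervals of the interactions and of the ratios, which compare groups of animals. Alternatives were DESeq2 1.42.0, limma-voom (limma 3.58.1), other scalings and filters, other covariates, both placements of the 2 disputed libraries, each depth class alone, other pseudocounts and leaving out each animal.

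Named genes are the 4 receptors, Fcer1g, Syk, Inpp5d and Ptpn6, up to 3 genes past the threshold per list with the largest change, and the 3 genes most like each receptor. Fcgrt, which completes a list of 4, was added after its value was seen. The members and lists were chosen with earlier results of these data known. Promoter windows are from RefSeq (GRCm38.p6), which matched all 4 receptors, and transcripts from GENCODE M21.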

Additional observations from a re-analysis of the deposited data

Results flagged for a closer look

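Of 28 groups of animals examined for 1 value far from the rest, 2 held such a value, where chance gives about 1 in 20. APOE3 sham replicate 4 had 12.8 CPM of Fcgr1, far above the other 6 animals of its group, and it was also the highest of them for Fcgr3 (40.1 CPM). APOE4 TBI replicate 1 had a log2 ratio of Fcgr4 to Fcgr2b of −1.90, above the other 7 animals of its group. In the 2 libraries that were left out, unassigned library 1 had 41.2 CPM of Fcgr3, above the highest sham animal (40.1 CPM) and below the lowest TBI animal (52.7 CPM), with all 32 libraries scaled together, which moves the levels slightly.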

How the results depend on the processing

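No paired analysis was possible because the labels give the groups no shared replicate numbers. The log2 differences of the 4 receptors between TBI and sham kept their direction and their call under all 11 alternatives. They also did without each of the 30 animals, and both hold over both genotypes and in each. For Fcgr4 the call carries the limit of the filter. The 6 correlations kept their direction and their call under 4 alternatives. The genotype differences and interactions passed under none of the alternatives run. The cause of the changes below was not tested.

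Signs of differences that never passed turned in some settings. In the shallow libraries alone the interaction was 0.11 for Fcgr1, 0.061 for Fcgr2b and 0.52 for Fcgr4, APOE4 minus APOE3 after TBI was 0.15 for Fcgr1, 0.20 for Fcgr2b, 0.11 for Fcgr3 and 0.38 for Fcgr4, and in sham −0.14 for Fcgr4. The Fcgr3 interaction was −0.073 with limma-voom, −0.10 with the disputed libraries placed by characteristics and −0.20 in the deep libraries alone. By characteristics, Fcgr1 in sham was −0.014. After TBI, Fcgr1 was 0.0027 with DESeq2, and Fcgr4 was 0.019 with DESeq2 and 0.0078 without the letter. Among genotype differences in ratio to Fcgr2b, Fcgr1 was 0.054 and Fcgr4 −0.38 in sham and the Fcgr4 interaction 0.65 in the shallow libraries, Fcgr4 after TBI −0.056 in the deep ones, and Fcgr3 after TBI 0.11 by characteristics. Between genotypes in sham, DESeq2 gave no adjusted p for Fcgr1, Fcgr2b and Fcgr4.

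Ratio calls changed as follows. With a pseudocount of 0.1, Fcgr3 to Fcgr2b passed in APOE4 (−0.52) and in APOE3 (−0.63), both with adjusted permutation p = 0.0484. With the disputed libraries placed by title, it passed in APOE4 (−0.61) and in APOE3 (−0.73), as did Fcgr1 in APOE3 (−0.52). Within 1 depth class, where groups of 3 or 4 animals cannot pass after adjustment, Fcgr4 to Fcgr2b was 1.61 and 1.11 in APOE4 and 0.96 and 1.95 in APOE3 (shallow and deep). With the genotypes together, the shallow libraries gave −0.43 for Fcgr1 and −0.54 for Fcgr3, neither of which passed.

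Called genes numbered 3241 over both genotypes in the shallow libraries alone, 1687 in APOE3 there, and 1865 (shallow) and 1341 (deep) in APOE4. Between genotypes in sham they were 19 with DESeq2, 5 with placement by title and 2 in each depth class. After TBI they were 57 with DESeq2, 11 by title and 3 in each depth class.

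Leaving out each animal in turn gave these ranges. Fcgr3 to Fcgr2b ran from −0.60 to −0.42 in APOE4 and from −0.73 to −0.50 in APOE3. It passed in both without APOE3 sham replicate 2, 5 or 7, APOE3 TBI replicate 5 or APOE4 TBI replicate 1, and in APOE4 also without APOE4 TBI replicate 5. Fcgr1 to Fcgr2b ran from −0.45 to −0.30 in APOE4, passing without APOE4 TBI replicate 1, and from −0.61 to −0.40 in APOE3, passing without APOE3 sham replicate 2 or 5. Called genes ran from 0 to 1 for the interaction (1 without APOE4 TBI replicate 6) and from 6 to 15 in sham (15 without APOE3 TBI replicate 8 or APOE4 TBI replicate 8, and 14 without APOE4 TBI replicate 4). After TBI they ran from 13 to 64 (13, 14 and 15 without APOE3 TBI replicates 4, 3 and 2, and 64 and 63 without APOE4 TBI replicates 6 and 7). The interaction ran from −0.18 to 0.038 for Fcgr1 and from −0.073 to 0.14 for Fcgr3. APOE4 minus APOE3 ran from −0.041 to 0.17 for Fcgr1 in sham, and after TBI from −0.11 to 0.058 for Fcgr1, −0.21 to 0.076 for Fcgr2b and −0.13 to 0.12 for Fcgr4. In ratio to Fcgr2b it ran from −0.15 to 0.064 (Fcgr1, sham), −0.16 to 0.57 (Fcgr4, sham) and −0.13 to 0.021 (Fcgr3, TBI), and the interaction from −0.0037 to 0.22 for Fcgr3 and −0.46 to 0.26 for Fcgr4. Depth limits Fcgr4 most, with 28 reads over 14 sham libraries.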

Other observations

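The 2 libraries with disputed labels belong to no group here. Unassigned library 1, titled as APOE4 sham and described as APOE4 TBI, had 7.10 CPM of Fcgr1, 41.2 of Fcgr3, 0.710 of Fcgr4 and 6.39 of Fcgr2b. Unassigned library 2, titled as APOE3 sham and described as APOE4 sham, had 5.47 CPM of Fcgr1, 35.4 of Fcgr3, 0.966 of Fcgr4 and 4.83 of Fcgr2b. In both libraries all 4 receptors lay below the lowest TBI animal, and Fcgr2b in library 2 lay below the lowest sham animal (5.22 CPM). Their log2 ratios of Fcgr3 to Fcgr2b were 2.65 and 2.83.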
